A study of Rattus norvegicus with 20 samples.

Results

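The comparison described here is the interaction of endotoxin and time in the RNA of rat milk fat: whether the difference between dams given lipopolysaccharide (LPS) and dams given saline was the same 24 h after the injection as 2 h after it. For each gene it is LPS minus saline at 24 h, less LPS minus saline at 2 h, on the log2 scale of the deposited expression table, so that a negative interaction means that the LPS difference was lower at 24 h than at 2 h. Genes were kept by their mean, at least 6.5 on that scale (about 23.9 normalised counts), over the libraries used. That left 9806 of the 16748 genes in the table.

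The dams were wild-type Sprague-Dawley rats, injected on postnatal day 10 of their litters with LPS or with pyrogen-free saline; the sources used here name neither the dose nor the dams' age. All 4 groups were milked by hand under isoflurane after 0.2 mL of oxytocin (20 USP units per mL), 2 h (P10) or 24 h (P11) after the injection, and RNA came from the washed fat layer. There were 5 libraries in each group, from 14 dams, of which 3 saline and 3 LPS dams were milked at both times. The time since injection, the postnatal day and, in those dams, an earlier milking cannot be told apart.

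LPS, which Gram-negative bacteria carry on their surface, binds CD14, MD-2 (Ly96) and Toll-like receptor 4 and starts an early wave of NF-kB and AP-1 targets through the adaptor MYD88. A later branch of the same receptor leads through interferon and transcription factors such as STAT2 and IRF9 to the interferon-stimulated genes, many of which restrict viruses. Milk fat globules carry remnants of the cytoplasm of the secretory epithelium, and cells present in milk can add to the RNA of the fat layer. In such bulk samples fewer cells of a type and less RNA per cell cannot be told apart.

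Library 2 of the saline 24 h group stood apart from its group and was left out, which leaves 19 libraries; medians of pathway lists are given with it as well. Its values correlated with those of the 2 h libraries at r = 0.980 to 0.988 and with those of the other 24 h libraries at 0.898 to 0.945 across all genes. Between 10743 and 12985 genes were above the table's lowest value in a library. Of 14 luminal epithelium markers in the table, 13 passed the filter on the mean. Neutrophil markers in the table numbered 17, of which 9 passed. Over all 17, summed normalised counts were 66.5 to 306 in saline and 86.4 to 1009.8 in LPS libraries at 2 h. At 24 h they were 11151 to 36454 in saline and 6322 to 22057 in LPS libraries. The 17 macrophage and monocyte markers in the table, 12 of which passed, summed to 2184 to 2864 and 2208 to 4298 at 2 h. At 24 h these sums were 8891 to 51044 and 7796 to 17355. The neutrophil granule gene Prtn3, the macrophage receptor Marco and the B cell gene Ms4a1 were at 0 in all 19 libraries.

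The promoters of interferon-stimulated genes carry the binding sequence of a complex that holds STAT2 and IRF9, and those of many NF-kB targets a shorter sequence bound by NF-kB dimers. The windows below are shown because they belong to list members with small interaction p that hold such a sequence. They come from RefSeq, build GRCr8, read 5′ to 3′ in the direction of the gene. The 6 interferon list members come first, with matches to GAAA, any 2 bases, GAAA on either strand in capitals. Tlr2 and Nfkbiz from the NF-kB list and Cxcl2 from the cytokine list follow, with matches to GGGA, any 4 bases, CC on either strand in capitals. Cxcl10, also a cytokine list member with a smaller p than Cxcl2, holds the NF-kB sequence too but is shown for its interferon element.
Rsad2, chr6:48788233-48788292, minus strand: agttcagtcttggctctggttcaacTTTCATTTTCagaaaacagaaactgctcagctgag
Irf7, chr1:205800058-205800117, minus strand: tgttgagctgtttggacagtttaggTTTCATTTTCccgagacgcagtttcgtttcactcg
Eif2ak2, chr6:21941113-21941153, plus strand: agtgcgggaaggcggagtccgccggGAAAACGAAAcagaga
Cxcl10, chr14:15988816-15988857, plus strand: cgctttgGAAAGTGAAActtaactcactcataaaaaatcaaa
Ifit3, chr1:241527257-241527316, plus strand: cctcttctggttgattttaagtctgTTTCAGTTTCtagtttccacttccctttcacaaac
Gbp5, chr2:233910918-233910977, plus strand: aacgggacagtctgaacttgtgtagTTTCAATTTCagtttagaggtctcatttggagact
Tlr2, chr2:171504565-171504624, minus strand: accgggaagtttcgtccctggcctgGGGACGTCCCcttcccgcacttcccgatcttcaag
Nfkbiz, chr11:58251683-58251720, plus strand: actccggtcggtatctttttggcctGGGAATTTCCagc
Cxcl2, chr14:17467294-17467353, minus strand: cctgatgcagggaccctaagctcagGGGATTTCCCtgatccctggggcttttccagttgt

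Within the 250 bases before the start, the interferon element so spelled, or its reverse complement, was found in 17 of the 27 interferon list members with a promoter in the RefSeq table (63.0%), against 3.29% of 27457 promoters and 2.66% of the 8077 promoters of genes tested. Of the 13 such members whose interaction was negative at an unadjusted p under 0.05, 9 held a match. The NF-kB sequence has fewer fixed letters and is more common, in 16.8% of all promoters and 21.8% of those of genes tested. It was found in 8 of 19 members of the NF-kB list and in 4 of 12 cytokines and chemokines. TCACNCCAC, the sterol element, was found in 0 of 17 cholesterol synthesis members and in 0.976% of all promoters. A match is a run of letters and does not show that a factor binds there. Nor does the lack of a match to the spelling searched, rare as the sterol one is, show that an element is absent.

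Across all genes the interaction was centred near 0, with a median of 0.0075 and 48.9% of genes negative. No gene passed an adjusted p of 0.05 (limma, Benjamini-Hochberg over 9806 genes, 0% called), and the smallest adjusted p was 0.433. An unadjusted p under 0.05 was reached by 867 genes (8.84%), where 5% would be reached with no difference in any gene. Of these, 546 had a negative interaction (5.57%) and 321 a positive one (3.27%). With saline 24 h library 2 in the fit the counts were 153 (1.56%) and 166 (1.7%), again with 0 genes past the adjusted threshold (319 in both directions, 3.26%). The LPS comparison at each time, taken alone, also had 0 genes past it in this fit, with 901 genes at an unadjusted p under 0.05 at 2 h (9.19%) and 910 at 24 h (9.28%).

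The plot of both LPS differences shows how the interaction was made up. Among the 546 genes with a negative interaction at an unadjusted p under 0.05, 496 were higher with LPS at 2 h and lower with it at 24 h, 17 were higher at both times and 33 were not higher at 2 h. Of the 321 with a positive interaction, 302 were lower at 2 h and higher at 24 h. Opposite signs are favoured by the choice of genes with a large interaction; over all genes tested, 24.4% had the first pattern and 25.1% the second. The median size of the interaction was 0.68 in the negative and 0.52 in the positive genes. With library 2 in the fit, 527 of the 546 and 320 of the 321 kept their sign, and 120 and 118 also kept an unadjusted p under 0.05.

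**Figure D1:**
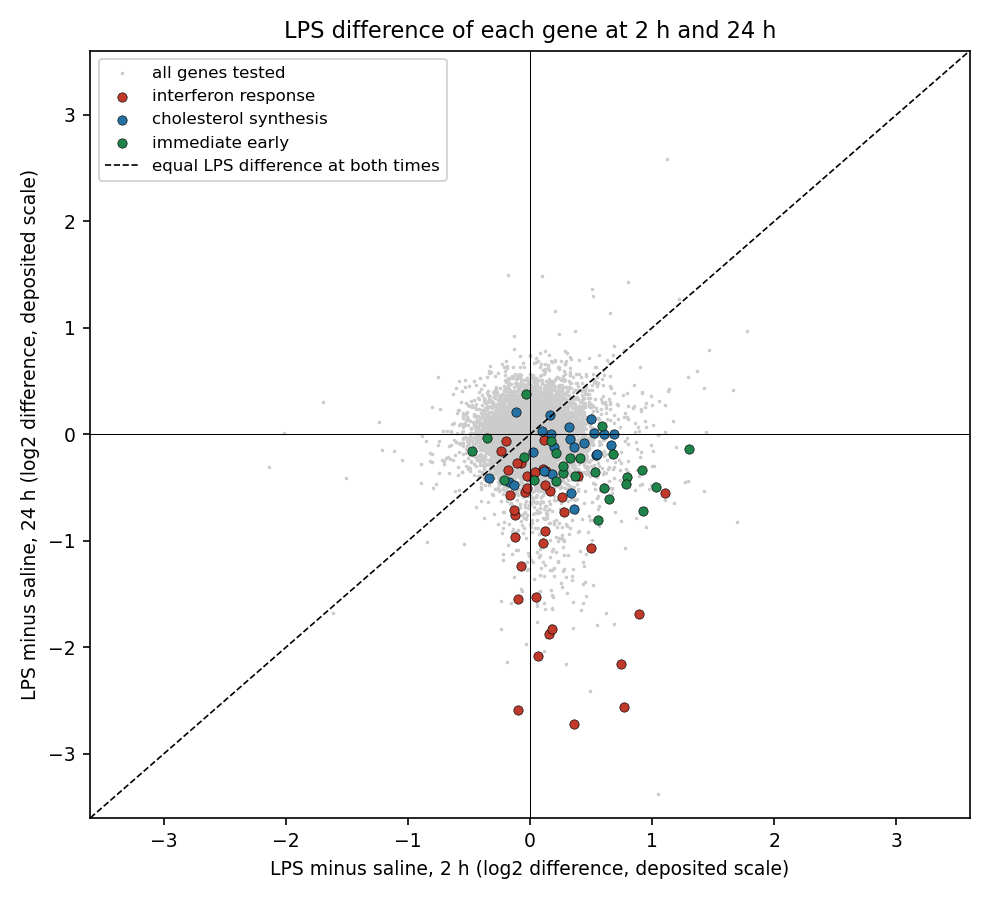
LPS minus saline at 2 h (horizontal) against LPS minus saline at 24 h (vertical), in log2 units of the deposited table, for the 9806 genes tested (grey) and the members of 3 gene lists (coloured), without saline 24 h library 2. The dashed line marks equal differences at both times; the 36 interferon response members all lie below 0 on the vertical axis, with Ifit2 at 0.77 and -2.56.

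Values below are normalised counts, obtained by inverting the deposited transformation. They are listed in the order of library numbers 1 to 5, and for the saline 24 h group as libraries 1, 3, 4 and 5. Errors of interactions are the SE of limma's model over the 19 libraries, and p is two-sided. No gene below had an adjusted p under 0.05: over the 867 genes with an unadjusted p under 0.05 the adjusted p ran from 0.433 to 0.564 (limma). Where an unadjusted p was above 0.05, that is said beside the gene. The genes named number 77 by the rule, of which 50 had an unadjusted p under 0.05, 19 of them also with library 2 in the fit.

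The smallest p of all belonged to Ugcg, the enzyme that makes glucosylceramide, the base of most glycosphingolipids. At 2 h it measured 785, 667, 768, 689 and 757 with saline and 923, 877, 992, 837 and 1049 with LPS. At 24 h it measured 1792, 2652, 1645 and 1964 with saline and 1437, 1503, 1024, 1301 and 1390.2 with LPS. The groups did not overlap at either time, with LPS on the high side at 2 h and on the low side at 24 h. The interaction was -0.87 ± 0.18 (limma adjusted p = 0.433). Saline 24 h library 2, at 729.9, lay within the 2 h saline range, and with it in the fit the interaction was -0.61.

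Gadd45a, a growth arrest gene induced by DNA damage and other stress, measured 798, 1203, 715, 1061 and 1118 with saline and 1382, 1990.3, 1081, 1859 and 1759 with LPS at 2 h. At 24 h the saline libraries measured 3622, 4161, 3907 and 3050.2 and the LPS libraries 2737, 2284, 2052, 3161 and 2719.8. The groups overlapped at both times, but only through LPS library 3 at 2 h and LPS library 4 at 24 h, which lay inside the saline range. The interaction was -1.17 ± 0.24 (-0.74 with library 2). Zfp36l1, an RNA-binding protein that promotes decay of AU-rich messengers, ranged 2213 to 3328 with saline and 3509 to 7212 with LPS at 2 h, with no overlap. Its ranges at 24 h were 13949 to 23408 and 11395 to 16476, which overlapped, and its interaction was -1.15 ± 0.25 (-0.67 with library 2).

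PVR, an adhesion molecule of the nectin-like family, had a day difference far larger than either LPS difference. Its ranges were 118 to 252 with saline and 190.2 to 411 with LPS at 2 h, and 4472 to 6790.4 and 2937 to 4259 at 24 h. The LPS libraries all lay below the saline libraries at 24 h, and the interaction was -1.08 ± 0.25. Library 2, at 234, had the level of the 2 h libraries, and with it the interaction was -0.28.

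Ankrd22, an ankyrin repeat gene, measured 708, 904, 859.9, 633 and 700.3 with saline and 1266, 1021, 783, 1017 and 1344 with LPS at 2 h. Its 24 h values were 449, 384, 383 and 326 with saline and 265, 315, 282, 323 and 218 with LPS. All LPS libraries but library 3 were above the saline libraries at 2 h, and all 5 were below them at 24 h. Its interaction was -0.83 ± 0.20 and -0.998 with library 2. Among the 8 genes of smallest p in this direction it alone was lower at 24 h than at 2 h in both treatments.

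The remaining 3 of the 8 are known from immune cells and defence. Cyld, a deubiquitinase that restrains NF-kB signalling, ranged 731 to 944 with saline and 779 to 1226 with LPS at 2 h and 2141 to 2988 and 1499 to 2402 at 24 h, with an interaction of -0.78 ± 0.19 (-0.58 with library 2). Slfn2, a schlafen family gene known from mouse lymphocytes, ranged 724 to 1428 and 1217 to 2888 at 2 h and 3763 to 6253 and 2714 to 3719 at 24 h, with an interaction of -1.22 ± 0.30 (-0.85 with library 2). The groups overlapped at 2 h in both genes, and at 24 h they were apart in Slfn2 only.

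Nod2, an intracellular sensor of bacterial cell wall fragments, measured 6.41, 13.1, 10.6, 20.8 and 4.50 with saline and 20.1, 46.2, 24.5, 56.8 and 145 with LPS at 2 h. Its 24 h values were 85.5, 592, 193 and 432 with saline and 133, 117, 48.8, 84.3 and 93.6 with LPS. At 2 h only saline library 4 reached the lowest LPS library, and LPS library 5 was the highest by a wide margin. At 24 h saline libraries 3 and 5 were high and saline library 1 lay inside the LPS range. The interaction was -1.84 ± 0.45 (-1.29 with library 2). In the authors' deposited table Nod2 had a log2 fold change of 2.38 at P10 (adjusted p = 0.0194) and -1.75 at P11 (adjusted p = 0.0673).

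**Figure D2:**
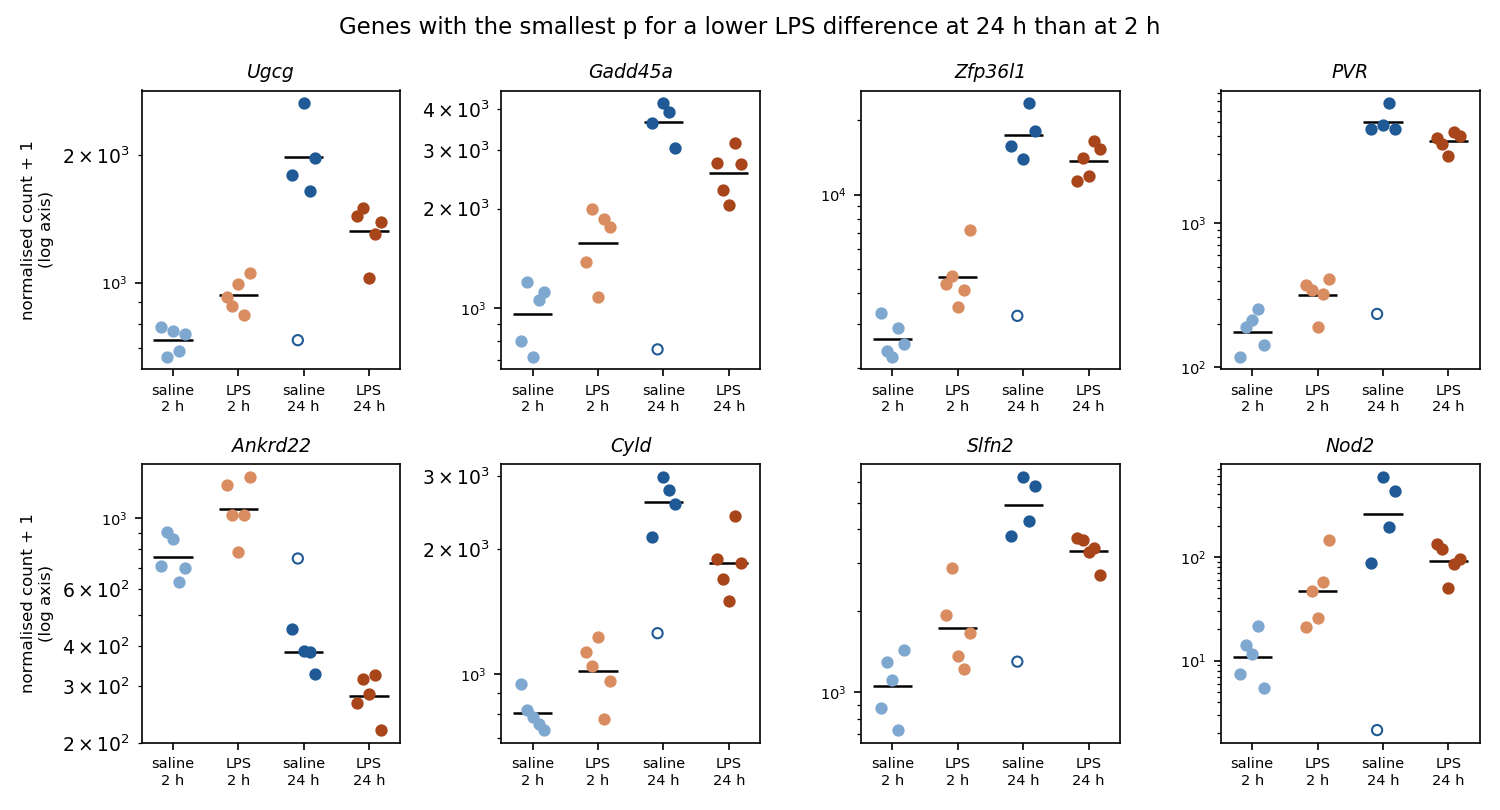
Normalised counts plus 1 (log axis) of the 8 genes with the smallest p for a negative interaction, in each library of the 4 groups. Black bars are means of log2 values over 5 libraries (4 for saline 24 h), and the open point is saline 24 h library 2, which was left out; in Ugcg all 5 LPS points lie above the saline points at 2 h and below the 4 filled saline points at 24 h.

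In the opposite direction the smallest p values belonged to 8 genes of varied roles. Hps6, a subunit of a complex that sorts cargo to lysosome-related organelles, measured 524, 633, 429, 546 and 599 with saline and 278, 278, 311, 575 and 237 with LPS at 2 h. A day after the injection it measured 125, 174, 179 and 228 with saline and 225, 260.1, 303, 228 and 234 with LPS. LPS was low at 2 h except in library 4, which lay among the saline libraries, and at 24 h only saline library 5 overlapped the LPS range. The interaction was 1.02 ± 0.24 (0.86 with library 2).

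Timm29, known in human cells as a subunit of a mitochondrial import complex, measured 1777, 2249, 2456, 1723 and 2281 with saline and 1562, 1412, 1475, 1695 and 1454 with LPS at 2 h, without overlap. At 24 h the values were 1416, 1357, 1470.2 and 1288 and 1610.0, 1367, 1634, 1558 and 1676, with overlap, and the interaction was 0.60 ± 0.15 (0.49 with library 2). Oplah, which recycles oxoproline in the glutathione cycle, ranged 2026 to 2576 with saline and 1359.8 to 1698 with LPS at 2 h. It was far lower in every kept library at 24 h, at 182 to 399.6 and 231 to 479.9, and its interaction was 0.87 ± 0.23 but 0.26 with library 2, which measured 2817.

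Kank2, a regulator of actin at cell adhesions, measured 73.6, 54.8, 56.2, 54.7 and 32.6 with saline and 45.9, 28.9, 53.4, 36.3 and 26.8 with LPS at 2 h. The 24 h libraries measured 73.7, 100.0, 128 and 123 with saline and 156, 199.8, 186, 174 and 351 with LPS. All LPS libraries were above all saline libraries at 24 h, library 5 most of all, while the groups overlapped at 2 h. Its interaction of 0.89 ± 0.24 was 0.89 with library 2 in the fit. The other four were Rpp25l, related to a subunit of ribonuclease P, at 0.82 ± 0.21; Nle1, a ribosome assembly factor, at 0.70 ± 0.18; Lcmt2, a transfer RNA modifying enzyme, at 0.63 ± 0.17; and Jade1, a scaffold of a histone acetyltransferase, at 0.54 ± 0.15. With library 2 these were 0.64, 0.46, 0.28 and 0.25.

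Among 26 pathway lists the interferon response had the lowest median interaction in this fit, as the plot of list medians shows. All 36 members in the table were tested, though a member could pass the filter through the 24 h libraries alone, as Cxcl10 did. Of the 36, 34 had a negative interaction, 19 of them at an unadjusted p under 0.05 (52.8%), against 5.57% of all genes tested. The median was -0.82, made of a median LPS difference of 0.082 at 2 h and -0.65 at 24 h, where all 36 members were lower with LPS. From 2 h to 24 h the median member was 1.43 higher in saline and 0.77 higher in LPS libraries. With library 2 the median was -0.80 and 7 members had a negative interaction at an unadjusted p under 0.05, against 1.56% of all genes tested. Without saline 24 h library 3 the median was -0.53 and 13 members did so. Over all genes tested, 401 to 681 did so with 1 library left out. Without saline 24 h library 3 the cytokine and immediate early lists described below had lower medians. With normalised counts plus 1 on a log2 scale the immediate early median was also the lower one, at -0.93 against -0.91. Of the 10 genes with the most negative interaction by size, 5 belong to this list.

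**Figure D3:**
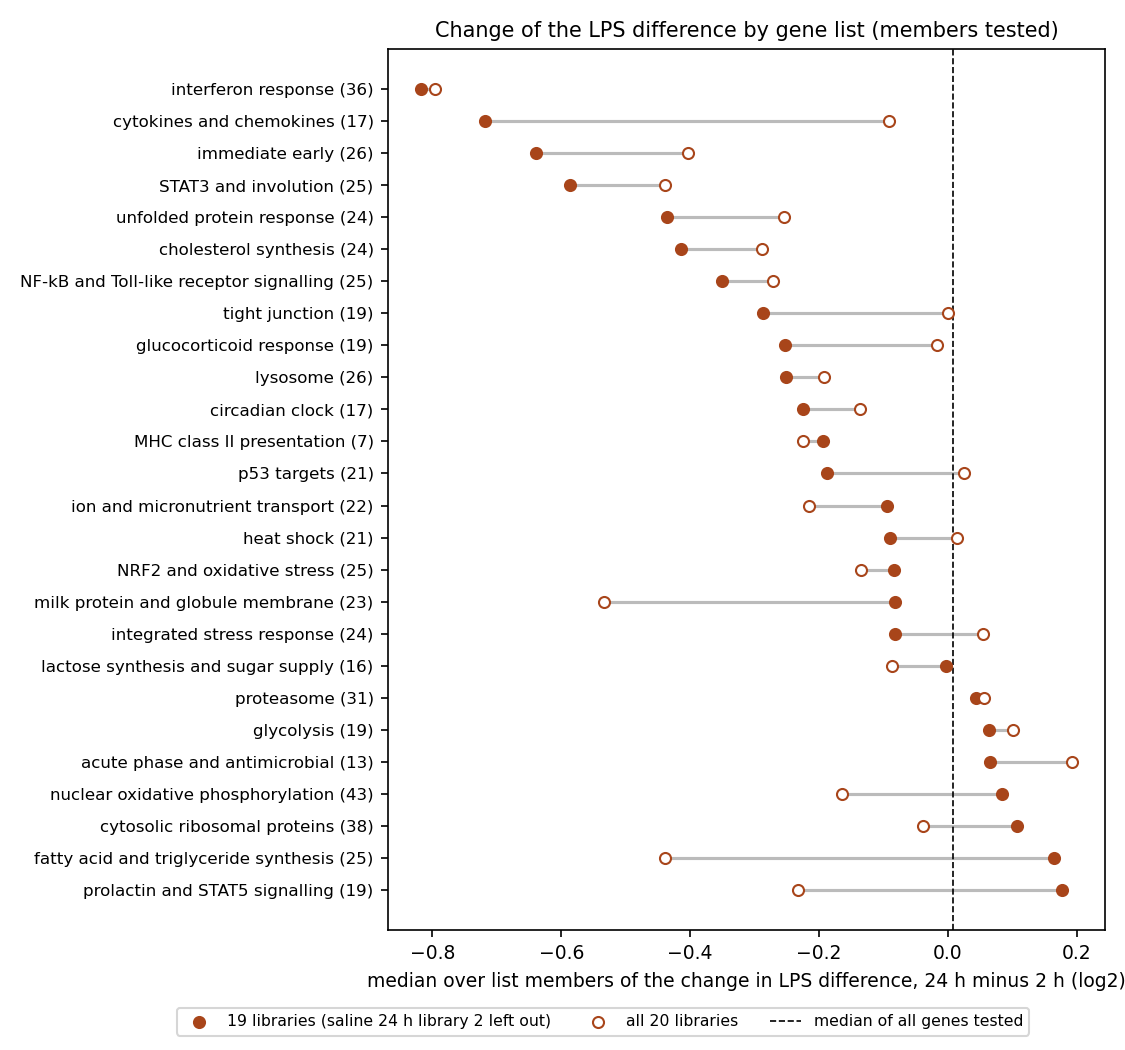
Median interaction (log2 units of the deposited table) over the tested members of each of 26 pathway lists, with the number of members in brackets. Filled points leave out saline 24 h library 2, open points include it and the dashed line is the median of all genes tested; the interferon response stands at -0.82 and -0.80, while fatty acid and triglyceride synthesis goes from 0.16 to -0.44.

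The median member level was set out by library. At 2 h the medians of the saline libraries were 8.59, 9.25, 8.35, 8.38 and 8.80 on the deposited log2 scale and those of the LPS libraries 9.003, 9.17, 9.30, 8.57 and 8.87. At 24 h the medians were 10.39, 11.86, 10.14 and 11.04 in saline and 10.41, 10.21, 10.02, 9.21 and 9.33 in LPS libraries. Saline libraries 3 and 5 were above every other library, saline libraries 1 and 4 lay within the LPS range, and LPS libraries 4 and 5 were the lowest of that time. Summed macrophage and monocyte markers in the same order were 10496, 24367, 8891 and 51044 in saline and 17355, 12640.1, 7796, 8569 and 12775 in LPS libraries at 24 h. Neutrophil markers summed to 11151, 19322, 11514 and 36454 and 22057, 14316, 10089.8, 6322 and 14888. Saline libraries 3 and 5 thus had the highest sums of their group for both cell types, and LPS library 1, the highest LPS library for the interferon median, had the highest sums of its own. The order was not the same throughout. LPS library 5, next to library 1 in both sums, had an interferon median of 9.33, above LPS library 4 alone. Saline library 5 was above saline library 3 in both sums but below it in the interferon median. The part of these cells in the interferon difference was not tested.

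Among sensors of foreign RNA, Ddx58, which encodes RIG-I, measured 500.5, 819, 532, 429.8 and 600.1 with saline and 488, 428, 885, 535 and 424 with LPS at 2 h. By 24 h it measured 1245, 4013, 787 and 1439 with saline and 882, 709, 620.5, 477 and 454 with LPS. The groups overlapped at both times, and saline library 3 at 24 h was the highest of all. The interaction was -1.17 ± 0.43 (-1.08 with library 2). Ifih1, which encodes the related sensor MDA5, had an interaction of -1.12 ± 0.47. Dhx58, the third of this family, had -0.20 ± 0.29 (unadjusted p above 0.05). Eif2ak2, a kinase that halts translation on binding double-stranded RNA, ranged 899.6 to 1417 and 1117 to 1846 at 2 h and 1908 to 4760.0 and 1242 to 2103 at 24 h, with an interaction of -1.01 ± 0.31.

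Of the transcription factors, Irf7, which amplifies the interferon response, measured 233, 405, 166, 117 and 133 with saline and 197, 324, 338, 108 and 217 with LPS at 2 h. Its 24 h values were 1994, 6726, 1528 and 5105 with saline and 2114, 1346, 701, 318 and 505 with LPS. The groups overlapped at 2 h, and at 24 h they overlapped through LPS library 1. The interaction was -2.03 ± 0.63 (-1.52 with library 2). Irf1, induced by interferon gamma and by NF-kB, differed in the make-up of its interaction. It measured 844, 767, 810.4, 759.9 and 1368 with saline and 1092, 3883, 901, 1724 and 4718 with LPS at 2 h, and 1068, 2042, 1054 and 1645 and 1016, 1020.0, 1034, 844 and 746 at 24 h. LPS libraries 2, 4 and 5 were above all saline libraries at 2 h, and all 5 LPS libraries were below all 4 saline libraries at 24 h. Its LPS difference was 1.10 at 2 h and -0.55 at 24 h, with an interaction of -1.66 ± 0.49.

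Stat2, part of the complex that carries the interferon signal to the nucleus, measured 2365, 2247, 2158, 1969 and 1852 with saline and 1574, 1884, 2503, 2067 and 2338 with LPS at 2 h. At 24 h it measured 2943, 4082, 2752 and 2431 with saline and 2179.9, 2103, 2203, 2016 and 1679 with LPS. The groups overlapped fully at 2 h and were apart at 24 h, every LPS library below every saline library, library 2 (2783) included. The interaction was -0.50 ± 0.20 and -0.48 with library 2. Its partner Irf9 had an interaction of -0.48 ± 0.29 (unadjusted p above 0.05), and the treatments overlapped at 24 h.

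Ifit2, which binds RNA and limits translation, had the largest negative interaction of the list. At 2 h it measured 80.1, 221, 93.3, 73.2 and 105 with saline and 227, 642, 147, 294 and 87.1 with LPS. Its 24 h values were 2821, 15464, 2098 and 8786 with saline and 4148, 1749, 456, 418 and 231 with LPS. At 24 h saline libraries 3 and 5 were above all LPS libraries, and LPS library 1 lay above saline libraries 1 and 4, so that the groups overlapped. The interaction was -3.33 ± 0.89 (-2.49 with library 2). Ifit3 and Ifit1 had interactions of -3.08 ± 0.98 and -2.91 ± 0.87 (-1.87 and -1.94 with library 2); the 3 genes are similar in sequence, and the sources used here do not say how reads shared between them were counted.

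Oasl, an oligoadenylate synthetase-like protein, measured 26.7, 92.1, 31.8, 34.9 and 44.0 with saline and 97.96, 49.6, 38.3, 44.3 and 60.3 with LPS at 2 h. A day after the injection it measured 1294, 6441, 1528 and 4041 with saline and 1528, 1275, 480.0, 470.2 and 349 with LPS. The groups overlapped at 2 h, and at 24 h only LPS library 1 reached the lower saline libraries. The interaction was -2.01 ± 0.57 (-1.18 with library 2). Isg15, a ubiquitin-like protein joined to other proteins, measured 2094, 6679, 1460.4 and 3681 with saline and 1791, 1102, 564, 318 and 249 with LPS at 24 h, after ranges of 116 to 427 and 145 to 363 at 2 h. Its groups again overlapped through LPS library 1 alone, and its interaction was -2.14 ± 0.64. Rsad2, an antiviral enzyme known as viperin, had -2.59 ± 0.74 (-1.70 with library 2). Usp18, which removes Isg15 and dampens interferon receptor signalling, had -1.45 ± 0.53.

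The chemokine Cxcl10, which attracts T cells and is induced by interferon, was low at 2 h, at 6.44, 43.5, 2.00, 4.34 and 12.5 with saline and 21.7, 11.3, 2.90, 6.37 and 2.23 with LPS. The 24 h libraries measured 185, 2171, 197 and 1768 with saline and 262, 109, 33.8, 5.34 and 10.47 with LPS. Saline libraries 3 and 5 were far above the rest, and LPS library 1 lay above saline libraries 1 and 4. The interaction was -2.49 ± 0.78 (-1.87 with library 2). Genes of antigen processing in the list were not spread alike. Tap1, the peptide transporter, had -0.60 ± 0.24 (-0.19 with library 2), the proteasome subunits Psmb8 and Psmb9 -0.16 ± 0.36 and -0.16 ± 0.37 (unadjusted p above 0.05 for both). The 2 members with a positive interaction were Bst2, which tethers virus particles, at 0.087 ± 0.45, and Ifi27 at 0.13 ± 0.33 (unadjusted p above 0.05 for both). Dtx3l and Parp9, whose proteins act as a pair, had -0.79 ± 0.32 and -0.47 ± 0.26 (unadjusted p above 0.05 for Parp9). Their genes are neighbours, and reads may be shared between them.

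**Figure D4:**
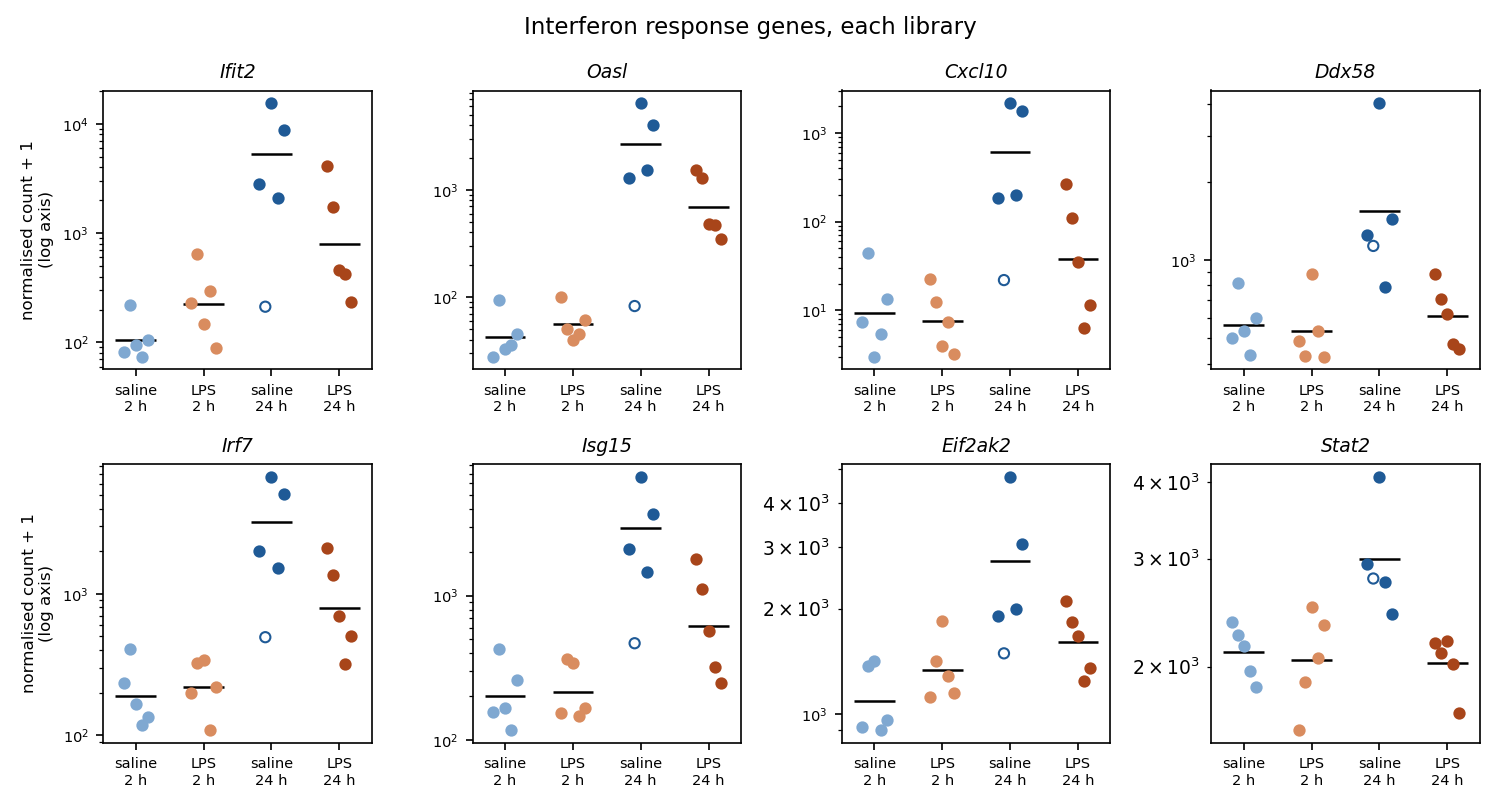
Normalised counts plus 1 (log axis) of 8 interferon response genes in each library, with black bars at the means of log2 values and an open point for saline 24 h library 2, which was left out. In Stat2 all LPS points lie below all saline points at 24 h, whereas in Ifit2, Oasl, Cxcl10, Irf7 and Isg15 the highest LPS library, number 1, overlaps the lower saline libraries.

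In the authors' deposited table for P11, Ddx58 had a log2 fold change of -1.55 (adjusted p = 0.0304), Isg15 of -2.11 (adjusted p = 0.302) and Cxcl10 of -3.67 (adjusted p = 0.231).

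Among genes of NF-kB and Toll-like receptor signalling, 21 of 25 tested members had a negative interaction, 7 of them at an unadjusted p under 0.05 (5.57% of all genes tested), and the median was -0.35. Its median LPS difference was 0.14 at 2 h and -0.15 at 24 h, and with library 2 the median interaction was -0.27 and 4 members were negative at an unadjusted p under 0.05 (1.56% of all genes tested). The same 2 shares of all genes stand beside the negative counts of the lists that follow. Tlr2, the receptor of bacterial lipoproteins, measured 602, 337, 626, 459.5 and 602 with saline and 1004, 1828, 669, 515 and 1762 with LPS at 2 h. By 24 h it measured 861, 998, 802 and 1552 with saline and 1023, 915, 522, 455 and 787 with LPS. LPS libraries 1, 2, 3 and 5 were above all saline libraries at 2 h, library 3 by little, library 4 was inside the saline range, and the groups overlapped at 24 h. The interaction was -1.38 ± 0.43 (-1.24 with library 2).

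Birc3, a ubiquitin ligase that keeps cells alive downstream of the tumour necrosis factor receptor, measured 270.3, 151, 386, 248 and 296 with saline and 206, 905, 176, 345 and 813 with LPS at 2 h. At 24 h the values were 846, 2299, 829.1 and 1157 with saline and 679.9, 618, 505, 454 and 507 with LPS. LPS libraries 2 and 5 alone were above the saline range at 2 h, and all LPS libraries were below all saline libraries at 24 h. Its interaction was -1.51 ± 0.49 (-1.31 with library 2). Nfkbia, the inhibitor that NF-kB induces against itself, split in the same way at 2 h, with 2343, 6919, 2369, 3767 and 11222 in LPS against 4149.9, 4239, 3064, 5940.1 and 2595 in saline libraries. Its interaction was -0.77 ± 0.51 (unadjusted p above 0.05).

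The receptor complex itself was uneven. Ly96, the subunit that binds LPS, had -0.79 ± 0.31 and the adaptor Myd88 -0.80 ± 0.28. Tlr4 had -0.13 ± 0.43 (unadjusted p above 0.05) and Cd14 -0.043 ± 0.56 (unadjusted p above 0.05), whose sign depended on the libraries used. Cd14 measured 729, 242, 304, 566 and 568 with saline and 403, 1464, 290.2, 373 and 1170.0 with LPS at 2 h and 4039, 1828, 5162 and 2815 and 4875, 2171, 4888, 4975 and 4444 at 24 h, with overlap at both times. The kinases Chuk, Ikbkb and Ikbkg, which free NF-kB, had interactions of -0.15, -0.014 and -0.026. All 3 had an unadjusted p above 0.05.

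Of the cytokines and chemokines, 17 of 31 in the table passed the filter on the mean, and a member could pass through the 24 h libraries alone. Among the 17, 15 were negative and 6 were so at an unadjusted p under 0.05, with a median of -0.72. With library 2 that median was -0.091 and 1 member was at an unadjusted p under 0.05. Lif, a cytokine that signals through STAT3 at the start of involution in mice, measured 6.54, 2.36, 6.77, 5.37 and 0 with saline and 20.8, 32.7, 2.94, 3.25 and 13.4 with LPS at 2 h. It measured 185, 93.2, 226 and 209 with saline and 89.7, 39.2, 119, 124 and 92.5 with LPS at 24 h, where saline library 3 lay among the LPS libraries. The interaction was -0.97 ± 0.31 (-0.46 with library 2). Il1b, the main inflammatory interleukin of myeloid cells, had -2.17 ± 0.76, and the neutrophil attractant Cxcl2 -1.66 ± 0.54, which were -1.28 and -0.80 with library 2. The related attractant Cxcl1 had -0.53 ± 0.37 (unadjusted p above 0.05).

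Il18r1, a subunit of the interleukin 18 receptor, was high with LPS early. It measured 133, 94.3, 288, 165 and 110.4 with saline and 607, 452, 509, 225 and 373 with LPS at 2 h. At 24 h it measured 117, 138, 133 and 168 with saline and 201, 224, 174, 191 and 248 with LPS. Only saline library 3 overlapped at 2 h, and the LPS libraries were all above the saline libraries at 24 h. Its LPS difference was 1.13 at 2 h and 0.40 at 24 h, so that both were positive, and the interaction was -0.72 ± 0.30 (-0.71 with library 2). The authors' deposited table gave it 1.46 at P10 (adjusted p = 0.00621) and 0.59 at P11 (adjusted p = 0.34).

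Immediate early genes, the transcription factors and RNA-decay factors that cells induce within minutes of a stimulus, had 23 of 26 members negative and 9 at an unadjusted p under 0.05, with a median of -0.64. Their median LPS difference was 0.39 at 2 h and -0.35 at 24 h, where 24 of the 26 were lower with LPS. Atf3, a repressor induced by stress and by Toll-like receptors, measured 34.2, 63.5, 135, 99.2 and 122 with saline and 489, 520.5, 58.6, 127 and 199 with LPS at 2 h. Its 24 h values were 5423, 4701, 5787 and 4011 with saline and 3195, 2963, 2564, 3744 and 2540.2 with LPS. LPS libraries 1, 2 and 5 were high at 2 h and libraries 3 and 4 were inside the saline range, and all LPS libraries were below all saline libraries at 24 h. The interaction was -1.64 ± 0.46 (-0.86 with library 2).

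Fosl2, a member of the AP-1 family, measured 250.2, 265, 231, 238 and 163 with saline and 357, 473, 236, 242 and 965 with LPS at 2 h, with library 5 the highest. A day after the injection it measured 696, 886, 682 and 705 with saline and 546, 528, 265, 479 and 527 with LPS, without overlap. The interaction was -1.26 ± 0.36 (-0.96 with library 2). Summed neutrophil markers in the LPS 2 h libraries, in the order 1 to 5, were 1009.8, 468, 86.4, 107 and 312. Libraries 1, 2 and 5, high for Atf3 and Fosl2, were thus also the highest in these, library 5 barely above the highest saline 2 h library (306). Summed milk protein and globule membrane genes split in the same way, at 7.30e+07, 7.42e+07, 4.48e+07, 3.82e+07 and 7.13e+07. The part of neither was tested. Jun had -1.26 ± 0.37 (-0.63 with library 2), Fos -1.44 ± 0.77 (unadjusted p above 0.05) and the messenger decay factor Zfp36 -1.36 ± 0.48. The day difference of this list was large, with a median of 2.19 in saline and 1.22 in LPS libraries, and library 2 had the 2 h level; with it in the fit the median interaction was -0.40 and 2 members were at an unadjusted p under 0.05.

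The list of STAT3 targets and involution genes, which mark the regression of the gland after weaning, had 22 of 25 members negative, 6 at an unadjusted p under 0.05, and a median of -0.59 (-0.44 with library 2, 1 member at an unadjusted p under 0.05). Without LPS 2 h library 2 the 6 became 3. Lrg1, a secreted glycoprotein of the acute phase, measured 352, 440.4, 406, 451 and 532 with saline and 769.9, 1063, 440.4, 506 and 1268 with LPS at 2 h, and 1253, 1843, 977 and 3474 and 1638, 1346, 802, 409.9 and 1179.8 at 24 h. LPS libraries 1, 2 and 5 were the high ones at 2 h and the groups overlapped at both times. The interaction was -1.43 ± 0.49. Socs3, the inhibitor that STAT3 induces, measured 3.23, 37.3, 42.7, 7.55 and 11.4 with saline and 52.4, 132, 17.4, 28.8 and 161 with LPS at 2 h, and 592, 550.0, 954 and 540.1 and 687, 471, 269, 385 and 576 at 24 h. LPS libraries 2 and 5 were the highest at 2 h by a wide margin. Its interaction was -1.20 ± 0.42 (-0.51 with library 2), and that of Stat3 itself -0.65 ± 0.34 (unadjusted p above 0.05).

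In the prolactin and STAT5 list, which carries the signal to make milk, 7 of 19 members were negative and the median was 0.18. With library 2 the median was -0.23, 16 of 19 were negative and 1 was so at an unadjusted p under 0.05. Jak2, the kinase of the prolactin receptor and of several cytokine receptors, was among the 3 at an unadjusted p under 0.05 and negative. It measured 1243, 1566, 1303, 1506 and 1258 with saline and 1803, 2307, 1618, 1471 and 2356 with LPS at 2 h, and 1224, 1331, 1280.3 and 1015 and 1215, 1062, 1022, 907 and 997 at 24 h. All LPS libraries but library 4 were above the saline libraries at 2 h, and the groups overlapped at 24 h. The interaction was -0.64 ± 0.18 (-0.61 with library 2).

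Cholesterol synthesis had 22 of 24 members negative, 10 at an unadjusted p under 0.05 against 5.57% of all genes, and a median of -0.41. As in the STAT3 list (0.36 at 2 h, -0.12 at 24 h) and the cytokine list (0.36, -0.14), the median LPS difference was larger in size at 2 h. That of cholesterol synthesis was 0.32 at 2 h and -0.11 at 24 h, so that most of the interaction lay at 2 h. Sc5d, a late enzyme of the pathway, measured 1791, 1481, 1565, 1593 and 1852 with saline and 2169.6, 2544, 2701, 1969 and 3039 with LPS at 2 h. The 24 h libraries measured 2011, 2079, 1772 and 1759 with saline and 1561, 1897, 1228, 1924 and 1803 with LPS. LPS was above saline in every library at 2 h, and the groups overlapped at 24 h. The interaction was -0.73 ± 0.19 and -0.63 with library 2.

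Cyp51, the demethylase that opens the steps from lanosterol, measured 2803, 3069.6, 3780.0, 3815 and 4407 with saline and 5182, 5640.0, 5275, 3911 and 6163 with LPS at 2 h. By 24 h it measured 4107, 5572, 4512 and 3144 with saline and 3905, 3358, 3105, 4972 and 3366 with LPS. Only LPS library 4 was within the saline range at 2 h, and the groups overlapped at 24 h. The interaction was -0.74 ± 0.24. Msmo1 and Idi1 had -1.06 ± 0.36 and -0.77 ± 0.28. With library 2 the list's median was -0.29 with 6 members negative at an unadjusted p under 0.05 against 1.56% of all genes, and without LPS 2 h library 5 the 10 became 6.

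The unfolded protein response, by which cells adjust the folding capacity of the endoplasmic reticulum, had 23 of 24 members negative, 9 at an unadjusted p under 0.05 against 5.57% of all genes, and a median of -0.44. Its median LPS difference was 0.32 at 2 h and -0.13 at 24 h. Sdf2l1, a cofactor of the chaperone Hspa5, measured 261, 259, 193, 195 and 245 with saline and 459, 339, 437, 289 and 304 with LPS at 2 h, without overlap. At 24 h it measured 1252, 1168, 1036 and 1122 with saline and 1161, 989, 1154, 1138 and 1201 with LPS, with overlap. Its interaction was -0.53 ± 0.17, that of the secreted folding factor Manf -0.65 ± 0.22 and that of Hspa5 -0.74 ± 0.26. Xbp1, whose spliced form drives the response, had -0.12 ± 0.28 (unadjusted p above 0.05). With library 2 the median was -0.25 and 0 of the 24 members were negative at an unadjusted p under 0.05 against 1.56% of all genes; Sdf2l1 had -0.14, Manf -0.39 and Hspa5 -0.28. Without LPS 2 h library 2 the 9 became 5.

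**Figure D5:**
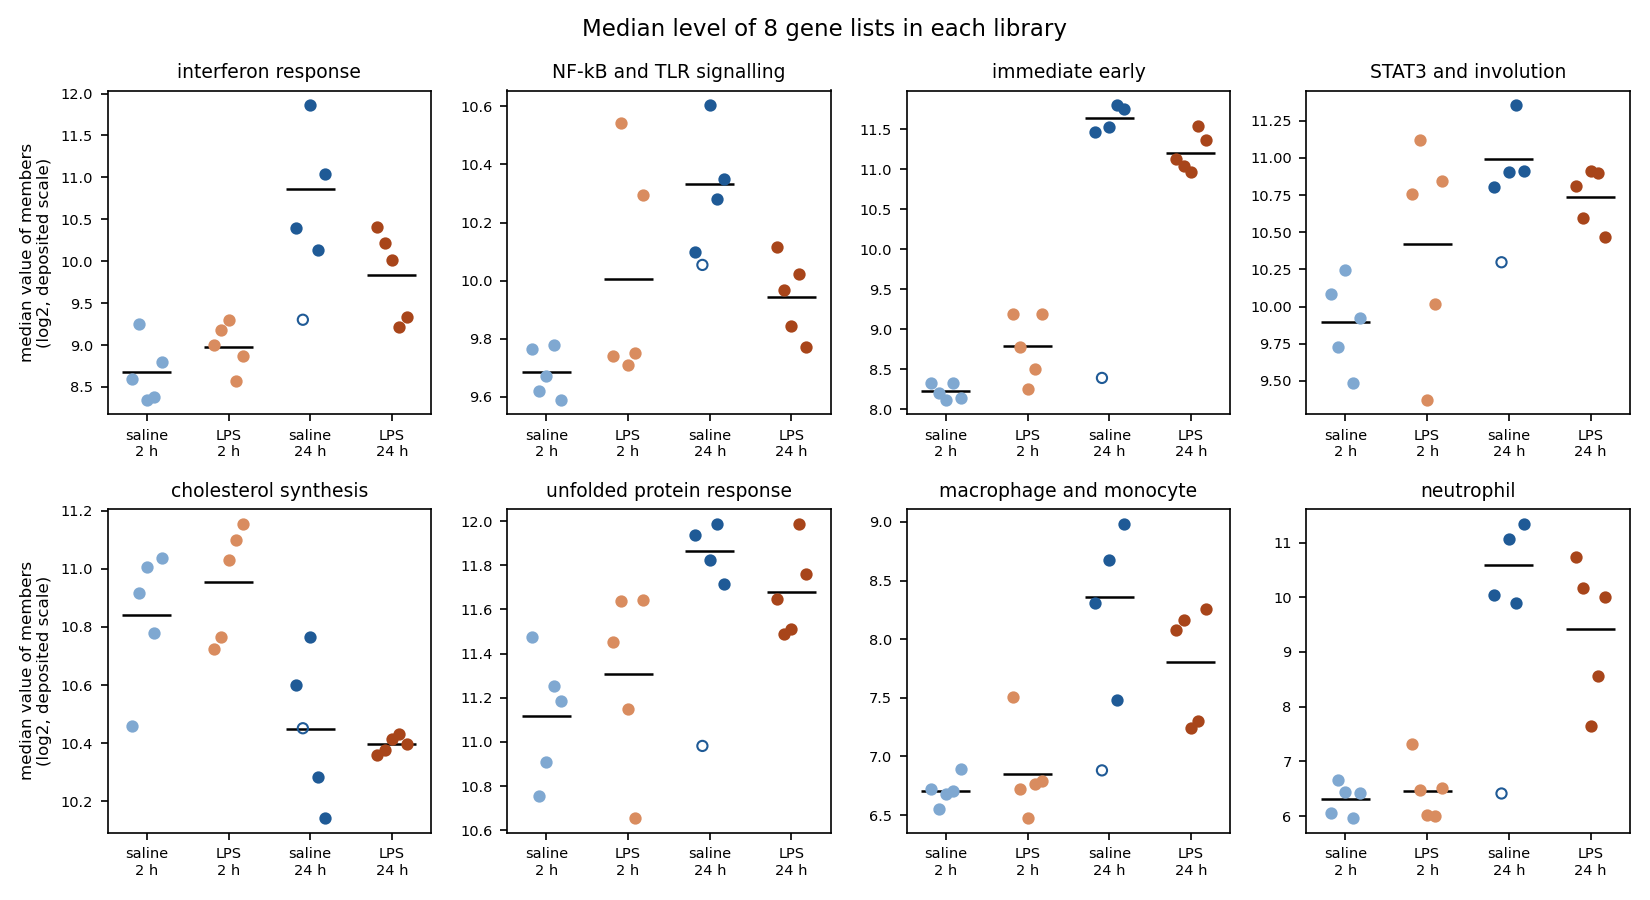
Median level over the tested members of 8 gene lists in each library (log2, deposited scale), with black bars at group means and an open point for saline 24 h library 2, which was left out. In the interferon panel saline 24 h libraries 3 and 5 are the 2 highest points, as they are in the neutrophil and macrophage panels, and in the NF-kB panel LPS 2 h libraries 2 and 5 stand above the other 3.

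The stress lists that share members with these were less one-sided. Ppp1r15a, which restores translation after stress, measured 553, 478, 371, 456 and 454 with saline and 543, 884, 389.6, 494 and 1029 with LPS at 2 h and 7441, 7838, 9104 and 6227 and 5238, 4760.2, 4035, 7589 and 5129 at 24 h. LPS libraries 2 and 5 were the high ones at 2 h, and LPS library 4 alone reached the saline range at 24 h. Its interaction was -0.92 ± 0.29 (-0.24 with library 2), while its list, the integrated stress response, had 15 of 24 members negative and a median of -0.081 (10 of 24 and 0.055 with library 2). Trib3, a target of the same pathway, had 0.42 ± 0.27 (unadjusted p above 0.05). Hspa1b, an inducible heat shock chaperone, had -1.09 ± 0.32 (-0.61 with library 2) in a list with 15 of 21 negative and a median of -0.091. With library 2 that list had 9 of 21 negative and a median of 0.015. Cryab, a small heat shock protein, had 0.64 ± 0.25, the 1 member at an unadjusted p under 0.05 and positive; it measured 1.14 to 10.0 with saline and 0 to 14.5 with LPS at 2 h. In the oxidative stress list Slc7a11 and Txnrd1 had -1.04 ± 0.44 and -0.48 ± 0.20, with 15 of 25 members negative, 4 at an unadjusted p under 0.05, and a median of -0.083. With library 2 the median was -0.14, with -0.51 and -0.16 for these 2 genes. Ion and micronutrient transport genes had 13 of 22 negative, 1 of them at an unadjusted p under 0.05, and a median of -0.095 (-0.22 with library 2).

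Aen, an exonuclease induced by p53, went the other way from Gadd45a. It measured 2479.7, 2147, 3403, 1702 and 2971 with saline and 1292, 966, 1827, 1548 and 1407 with LPS at 2 h, and 2408, 2206, 2394 and 2601 and 2152, 1699.7, 1858, 2198 and 2078 at 24 h. LPS was low at 2 h except for library 3, which passed the lowest saline library, and at 24 h all LPS libraries were below all saline libraries. Its LPS difference was -0.80 at 2 h and -0.26 at 24 h, with an interaction of 0.54 ± 0.24 (0.46 with library 2). The list of p53 targets had 15 of 21 members negative, with 3 negative and 1 positive at an unadjusted p under 0.05. Its median was -0.19, and 0.026 with library 2.

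Lysosomal genes had 23 of 26 members negative but only 2 at an unadjusted p under 0.05, with a median of -0.25 (-0.19 with library 2). Lamp2, a membrane protein of the lysosome, measured 3336, 1637, 1629, 2296 and 2327 with saline and 3339, 3622, 2892, 2237 and 3789 with LPS at 2 h and 5607 to 6075 and 5206 to 5937 at 24 h, with overlap at both times. It had -0.57 ± 0.23 (-0.27 with library 2), and Man2b1, a mannosidase, -0.62 ± 0.25. Legumain (Lgmn), counted in the major histocompatibility class II presentation list and not in this one, had -0.44 ± 0.22 (unadjusted p above 0.05), which was 0.22 with library 2. Of the tight junction genes 14 of 19 were negative, 2 at an unadjusted p under 0.05; the scaffolds Tjp1 and Mpp5 had -0.53 ± 0.19 and -0.56 ± 0.19 (-0.32 and -0.45 with library 2), and the median went from -0.29 to 0.00075 with library 2.

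For the genes of milk making the median moved with library 2, and for those of fat it changed sign. Fatty acid and triglyceride synthesis had a median of 0.16 with 9 of 25 members negative, and -0.44 with library 2. Fasn, the fatty acid synthase, measured 80558, 123207, 19374 and 31254 with saline and 70183, 113499.6, 112169.6, 27749.8 and 43721 with LPS at 24 h, against 1157879 in library 2. The kept saline libraries enclose the LPS libraries, and library 2 lies within the 2 h saline range of 910672 to 2889282. Its interaction was 0.29 ± 0.67 (unadjusted p above 0.05) and -0.62 with library 2. The 2 members at an unadjusted p under 0.05 were the triglyceride-forming enzymes Dgat1, at -0.55 ± 0.25, and Dgat2, at -1.21 ± 0.58 (-0.38 and -0.45 with library 2).

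The milk protein and globule membrane list had a median of -0.083 with 14 of 23 members negative, and -0.53 with library 2. Csn1s2b, a casein, was its 1 member at an unadjusted p under 0.05. At 2 h it measured 530711, 396606, 761071, 863719.5 and 589091 with saline and 3335050.2, 2339381, 1834061, 921199 and 1942306 with LPS. Its 24 h values were 502897, 166199, 190847 and 423275 and 663679, 542371, 297768, 257827 and 296717. LPS was above saline in every library at 2 h, by the least in library 4, and the groups overlapped at 24 h. The interaction was -1.24 ± 0.56 (-1.35 with library 2). The major casein Csn2 had -0.33 ± 0.62 (unadjusted p above 0.05; -0.80 with library 2) and alpha-lactalbumin (Lalba), the regulator of lactose synthesis, -0.10 ± 0.47 (unadjusted p above 0.05).

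Lists of general cell machinery, and lactose synthesis and sugar supply, had medians close to that of all genes. Cytosolic ribosomal proteins had a median of 0.11 (-0.039 with library 2), nuclear oxidative phosphorylation 0.085 (-0.16), the proteasome 0.043 (0.056) and lactose synthesis and sugar supply -0.0021 (-0.087). Of the 38 ribosomal members 34 were positive, whereas 28 were negative with library 2. Major histocompatibility class II presentation had 5 of 7 tested members negative and a median of -0.19 (-0.23 with library 2). In these 5 lists 0 members were at an unadjusted p under 0.05 in either direction. Circadian clock, glucocorticoid response and glycolysis genes also had 0 such members, with medians of -0.23, -0.25 and 0.064, which were -0.14, -0.016 and 0.10 with library 2. The glucocorticoid median ran from -0.54 to -0.051 with 1 library left out. Acute phase and antimicrobial genes had 1 such member, Chi3l1, a secreted chitinase-like glycoprotein, at -0.97 ± 0.31 (-0.59 with library 2), and a median of 0.066 (0.19 with library 2). Lcn2, an iron-capturing antimicrobial protein, had 1.06 ± 1.35 (unadjusted p above 0.05), and its libraries spread from 269 to 13901 with LPS at 2 h and from 1676 to 101393 with LPS at 24 h.

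Among markers of other cell types, the 9 neutrophil genes tested, of 17 in the table, all had a negative interaction, 2 at an unadjusted p under 0.05 (Csf3r and Cxcr2, receptors that direct neutrophils), with a median of -0.75. They passed the filter through the 24 h libraries, where they were high, and with library 2 the median was -0.18 and 0 were at an unadjusted p under 0.05. S100a8, their most abundant calcium-binding protein, measured 24.6, 40.2, 50.9, 18.9 and 28.4 with saline and 105, 160.0, 14.6, 42.9 and 53.3 with LPS at 2 h and 2634, 2335, 4167 and 9064 and 5405, 3888, 5787, 3033 and 4096 at 24 h. The groups overlapped at both times, and its interaction was -0.31 ± 0.46 (unadjusted p above 0.05, and 0.68 with library 2). Elane, a neutrophil marker below the filter, had a positive interaction of 0.51 with no filter on the mean. Macrophage and monocyte markers had 7 of 12 negative, 2 of them at an unadjusted p under 0.05, against 5.57% of all genes tested. Their median was -0.052 (0.011 with library 2, where 0 were at such a p). Fcgr1a, which interferon is known to induce, had -1.82 ± 0.79 (-1.06 with library 2). The complement genes C1qa, C1qb and C1qc had 0.37, 0.15 and 0.0018 (unadjusted p above 0.05 for all 3). Luminal epithelium markers had a median of 0.12 over 13 genes and myoepithelium markers of -0.002 over 7, which were 0.076 and 0.25 with library 2. Fewer than 4 markers passed the filter for skin keratinocytes (2, median 0.34), endothelium (3, -0.12), lymphocytes (2, 0.47) and cells of fat and connective tissue (3, -0.33). With library 2 these medians were 0.68, 0.24, 0.38 and -0.16. The 4 red blood cell genes had a median of 1.43, which rested on saline 2 h library 3 and was 0.13 without it.

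The authors' deposited tables of LPS differences, which were made separately for each day, hold 1024 genes for P10 and 1085 for P11, each with a p-value under 0.05. Unlike in the limma fit, some also had an adjusted p under 0.05 there. Among them were Csn1s2b at P10 (DESeq2 adjusted p = 8.16e-06) and Scgb2a2 at P11 (DESeq2 adjusted p = 0.000336). The expression table holds 16748 genes. In both lists are 134 genes, 13.1% of the first and 12.4% of the second. Whether this differs from the overlap of 2 unrelated lists of these sizes was not tested. Of those 134 genes, 63 had opposite directions in the deposited tables, 55 of them higher with LPS at P10 and lower at P11. A further 56 were higher and 15 lower at both times. Ugcg had log2 fold changes of 0.35 and -0.58 in the authors' deposited tables, and Ifit2 of 1.28 and -2.36.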

How the data were processed

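RNA from milk fat was sequenced by the submitters as stranded messenger RNA libraries with 100 bp reads, per the labels' protocols, and processed with DESeq2 on rat build rn6, per the submitters' processing notes. Those notes and labels do not name the aligner, the counting tool, the strand setting or the annotation. Expression values were deposited by the authors as log2-scale values in a table whose name calls them rlog. They share a single lowest value of 5.46, the form of a variance-stabilising transformation, which was inverted to normalised counts; small differences of rare genes are compressed on this scale. The authors also deposited, for each day, tables of LPS against saline with log2 fold change, p-value and a Wald score, per the file headers. Read totals are not held in such values, so depth is unknown and precision is the spread between libraries.

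A model of 4 groups was fitted per gene with limma 3.58.1 (R 4.3.3) with a mean-variance trend, to 19 columns and 9806 genes with a mean of at least 6.5. P-values are two-sided, with Benjamini-Hochberg adjustment over all genes tested and a threshold of 0.05. The fit was tested on simulated data. Columns name the group but not the dam, so libraries of one dam were treated as independent, and p-values measure the spread between libraries.

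The members, the 35 gene lists and the naming rule were chosen with earlier results of these data known. The rule names the 8 genes of smallest p in each direction whose sign holds with library 2, the 2 members of smallest p in each pathway list, and 14 genes whatever their outcome; 77 genes in all. Other members named were chosen after their values were seen. Some list members are counted but not reported by name here. Of the deposited gene IDs, 16619 were in the reference table, which also gave back 25 symbols that had been turned into dates. Promoter sequences are from RefSeq (GRCr8) and no coordinate was taken from it for rn6. Alternatives were library 2, the filter, the normalisation, the scale, the trend, robust moderation, weights per library and each library left out.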

Additional observations from a re-analysis of the deposited data

Results flagged for a closer look

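A value was picked out here when the highest or lowest library of a group lay far from the rest by Dixon's criterion, which chance meets in about 1 in 20 groups. Over 448 groups of libraries this held in 22 (4.91%), 17 times for genes (Fosl2 in 2 groups) and 5 times for lists. By group there were 9 in saline 2 h, 2 in LPS 2 h, 5 in saline 24 h and 6 in LPS 24 h libraries. Values of genes are normalised counts.

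Among saline 2 h libraries, Ifit2 stood at 221 in library 2 (73.2 to 105 in the others) and Cp, the copper carrier ceruloplasmin, at 1602 in the same library (2794 to 3422). Library 1 was low for the glycolytic enzyme Gpi, at 6776 (9178 to 9644). Library 3 was high for Cryab, at 10.0 (1.14 to 2.17), and for the phosphate transporter Slc20a1, at 2399 (2093 to 2152). The death receptor Fas stood at 382 in library 4 (219 to 258) and the glycolytic enzyme Pfkm at 569 in library 5 (752 to 828). Library 3 was also apart in 2 lists by the median log2 level of their members, with 10.22 for the integrated stress response (10.57 to 10.67) and 12.14 for red blood cell genes (7.17 to 8.17).

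Among LPS 2 h libraries, Mpp5 was low in library 4, at 1185 (1369 to 1419), and the heat shock list was high in library 1, at a median of 10.82 (10.40 to 10.50).

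Among saline 24 h libraries, library 4 was high for PVR, at 6790.4 (4472 to 4760.4), and for Socs3, at 954 (540.1 to 592). Fosl2 stood at 886 in library 3 (682 to 705), Lcmt2 at 92.6 in library 5 (129 to 137), and the luminal epithelium list at a median of 13.50 in library 1 (12.87 to 12.97).

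Among LPS 24 h libraries, library 3 was low for Fosl2, at 265 (479 to 546), for Txnrd1, at 7926 (11164 to 12402), and for the fibroblast and adipocyte list, at a median of 6.69 (7.32 to 7.53). Kank2 stood at 351 in library 5 (156 to 199.8). Library 2 was low for Sdf2l1, at 989 (1138 to 1201), and for Cd14, at 2171 (4444 to 4975). In Ugcg, Gadd45a, Stat2 and Atf3 no library was apart by this criterion.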

How the results depend on the processing

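No gene passed the adjusted threshold for the interaction under any alternative that kept the filter on the mean, each library left out in turn included; with no filter on the mean 4 genes did, Grid2ip, P4ha3, Aox2 and Elane, all positive and all below the filter used. At an unadjusted p under 0.05 the count of negative genes was 153 with saline 24 h library 2 and 401 to 681 with 1 library left out. The count of positive genes was 166 with library 2, 583 with no filter and 262 to 416 with 1 library left out. For the LPS comparison at 2 h the adjusted count ranged from 0 to 29 with 1 library left out, the 29 without LPS library 4. At 24 h it ranged from 0 to 17, and was 9 with no filter. The 17 were found without LPS library 1, with 16 lower, 6 of them interferon list members (Isg15, Ifit2, Cxcl10, Ifit3, Oasl and Irf7). Of the 77 genes named by rule, 71 kept the sign of their interaction under every alternative. Arntl was -0.048 and Lgmn 0.22 with library 2. Lalba was 0.43 with quantile normalisation, 0.11 with weights per library and -0.30 to 0.19 with 1 library left out. Fasn was -0.62 with library 2 and -0.16 to 0.73 with 1 left out. Cd14 was 0.49 with library 2, 0.12 with quantile normalisation and -0.31 to 0.25 with 1 left out. S100a8 was 0.68 with library 2 and -0.55 to 0.084 with 1 left out. For all of these the cause was not tested. No paired analysis was possible because the table's columns name the group and a number but no dam. Depth per library is unknown, and low genes such as Nod2, Lif and Cxcl10 at 2 h rest on few counts.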

Other observations

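The genes in this section were chosen after their values were seen, by the size of the interaction alone. The most negative interaction of all genes tested belonged to Fam111a, a protease known in human cells for restricting viruses, at -4.42 ± 1.79 (-4.25 with library 2). It measured 3469.6, 159, 162, 2663 and 180.0 with saline and 4446, 3239, 276, 148 and 4367 with LPS at 2 h, and 19186, 594, 15713 and 14433 and 14360.1, 474, 333, 150.3 and 160.4 at 24 h. In these 19 libraries no value lay between 594 and 2663, and each group had libraries on both sides: the high ones were libraries 1 and 4 of saline 2 h, 1, 2 and 5 of LPS 2 h, 1, 4 and 5 of saline 24 h and 1 of LPS 24 h. Saline 24 h library 2, which was left out, measured 4009.5, on the high side. The interaction thus depends on how many high libraries fell in each group. Whether the high and low levels went with the dam was not tested.

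Nos2, the inducible nitric oxide synthase, measured 19.2, 124, 78.7, 19.7 and 94.4 with saline and 299, 114, 18.8, 99.4 and 118 with LPS at 2 h. At 24 h the values were 5652, 26238, 3902 and 7943 with saline and 6247, 4243, 243, 1043 and 871 with LPS, so that LPS libraries 3, 4 and 5 lay below all saline libraries and libraries 1 and 2 among them. Its interaction was -2.90 ± 0.93 (-1.77 with library 2). Slfn4, a schlafen family gene of myeloid cells in mice, measured 29365, 69725, 17394 and 96259 with saline and 27255, 19882, 6253, 5465 and 4393 with LPS at 24 h, after ranges of 155 to 541 and 134 to 1139 at 2 h. Its interaction was -2.44 ± 0.81 (-1.22 with library 2), and its highest libraries at 24 h, saline 3 and 5, are those with the highest neutrophil and macrophage marker sums of their group.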
